A study of Caenorhabditis elegans with 12 samples.

Results

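The respiratory chain of mitochondria passes electrons from NADH and succinate through complexes I to IV to oxygen, and the proton gradient made on the way drives ATP synthase. Its subunits come from 2 genomes. Most are encoded in the nucleus, translated in the cytosol and imported, and a few hydrophobic core subunits are encoded by mitochondrial DNA (mtDNA), so the complexes are assembled from products of both. In C. elegans the eggs supply mitochondria, mtDNA and many of these mRNAs to the embryo, and mutants of several subunits, among them mev-1, nuo-6 and isp-1, are known for altered growth rate, stress resistance and lifespan.

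The levels of 34 nuclear-encoded subunit mRNAs were examined, chosen by name from the 20362 genes counted. They comprised 8 subunits of complex I, 4 of complex II, 4 of complex III, the cytochrome c gene cyc-2.1, 7 subunits of complex IV and 10 of ATP synthase, and all 34 were listed in the files and passed the minimum of 20 counts over all libraries. The genes lay on chromosome I (10 genes), II (3), III (8), IV (4), V (4) and X (5).

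The study compared whole embryos of wild-type C. elegans (strain N2) with embryos of strain MLC1800, in which the miR-51 family of microRNAs (mir-51 to mir-56) is deleted, hereafter miR-51Fam null, at the 190-cell, bean and 2-fold stages, to see which mRNAs rise when this family of repressors is missing. The 12 libraries fell into 6 groups of 2, each library was made from 50 embryos collected early and left to develop, and both genotypes were grown at 20 °C. MLC1800 carried the deletions nDf67, n4100 and nDf58 together with an extrachromosomal array, lucEx1057, that holds a fosmid with miR-54C and green fluorescent markers. The selection of array-free embryos was not described in the sources used here, and the deletions were not checked here, since microRNAs were not analysed. QuantSeq was used, which reads mRNAs close to the 3′ end, so that a count does not grow with transcript length and levels of different genes were compared without division by length. Estimated reads per molecule, if repeated reads of a molecule were kept, were 3.68 to 56.8 in the 11 deep libraries. The study describes its duplicates as independent. Neither it nor the labels states that the 2 libraries of a group came from separate cultures, so p-values measure only the spread between these libraries. Whole-embryo RNA was measured, and so fewer cells of a type and less RNA per cell cannot be told apart.

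Reads assigned to genes ranged from 887059 to 9558104 in 11 libraries. The remaining library, null 190-cell replicate 1, had 11081, and a single read there was worth 40.7 CPM (the count scaled to a common library size, after TMM correction of the library totals in edgeR). In that library 145 reads fell on the 34 genes and 8 of them had 0 reads, which allows up to 122 CPM each, while all 34 had reads in each of the other 11 libraries. Wild-type libraries held more reads of yolk protein genes (vit-1 to vit-6, made in the adult intestine) than null libraries, 0.0176% to 0.492% against 0% to 0.00902% of assigned reads, with wild-type 190-cell replicate 1 and 2-fold replicate 2 the highest. Germline markers (4 genes) held 0.0141% to 0.0915% in wild-type and 0% to 0.0144% in null libraries, and early embryonic and maternal markers (5 genes tested) held 0.0325% to 0.172% and 0.00106% to 0.0428%. Body wall muscle markers (6 genes), made by the developing embryo itself, held 0.0918% and 0.113% in wild-type and 0.0751% and 0.171% in null 190-cell libraries, and 0.512% to 0.612% and 0.509% to 0.591% at the 2-fold stage. At the bean stage they held 0.412% and 0.344% in wild-type and 0.485% and 0.476% in null libraries, so that both null libraries lay above both wild-type ones. Most of these reads were of act-4, at 4064 and 3421 CPM in wild-type and 4972 and 5292 CPM in null bean libraries. There unc-54 also lay above in the null (31.8 and 44.3 against 144 and 101 CPM), while hlh-1, myo-3, unc-15 and unc-87 overlapped. What part these markers had in the genotype results below was not tested.

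Together the 34 mRNAs took 1.0% to 1.54% of assigned reads in every library. The wild-type shares were 1.0% and 1.29% in the 190-cell libraries, 1.41% and 1.54% in the bean libraries and 1.29% and 1.24% in the 2-fold libraries. The miR-51Fam null shares, in the same order of stages, were 1.31% and 1.11%, 1.23% and 1.15%, and 1.15% and 1.18%. The value of 1.31% belongs to the shallow library and has an exact 95% binomial interval of 1.11% to 1.54%, which covers counting error only. The genotypes overlapped at the 190-cell stage and did not overlap at the bean and 2-fold stages, where both wild-type libraries lay above both null libraries. With 2 libraries against 2 no exact test can pass the 0.05 threshold, and none was run. On TMM-scaled library sizes the group means at the 2-fold stage were 1.43% of the scaled total in wild-type and 1.46% in null embryos, so the order at that stage turned with the scaling.

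**Figure D1:**
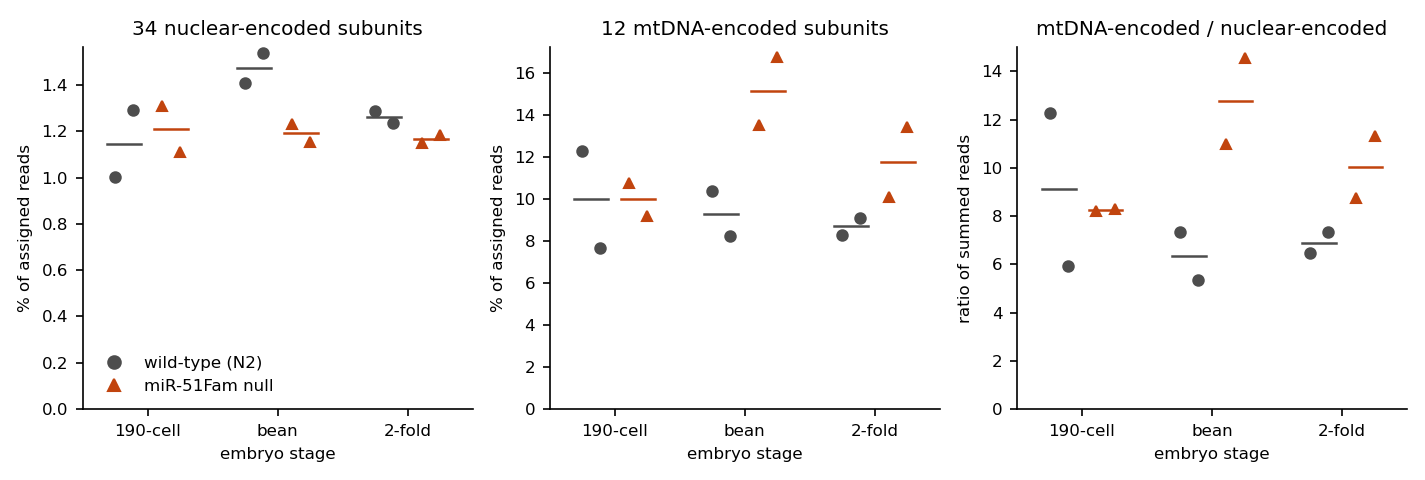
Percentage of assigned reads on the 34 nuclear-encoded subunit mRNAs (left), percentage on the 12 mtDNA-encoded subunit mRNAs (middle) and the ratio of mtDNA-encoded to nuclear-encoded reads (right) by stage. Each point is 1 library and each line the mean of 2; the nuclear-encoded share stays between 1.0% and 1.54%, whereas the ratio in the null bean and 2-fold libraries (8.77 to 14.6) lies above that in the wild-type ones (5.35 to 7.36 at bean, 6.46 and 7.34 at 2-fold).

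Most reads of the 34 genes came from the listed subunits of the last steps of the chain. The 7 complex IV genes held 0.364% to 0.595% of assigned reads across the 12 libraries and the 10 ATP synthase genes 0.337% to 0.552%, and those 2 complexes together made up 69.3% to 76.3% of the reads of all 34 genes. cyc-2.1 alone held 0.108% to 0.147%. The 8 complex I genes together held 0.0659% to 0.126%, the 4 complex III genes 0.0647% to 0.0921%, and the 4 complex II genes 0.0248% to 0.0541%. In all 12 libraries the listed genes of complex IV and of ATP synthase each summed above those of every other complex and cyc-2.1. The lists differ in size and leave out other nuclear subunits, so these sums do not rank whole complexes.

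Single mRNAs ranged in mean CPM over the 12 libraries from 44.5 for asb-1 to 1360 for cyc-2.1, with a median of 203. Between the lowest and the highest of the 11 deep libraries the level of a subunit differed by a median of 2.62-fold, and for 26 of the 34 by less than 3-fold. The same median was 6.17-fold over genes with a mean of 20 CPM or more and reads in each of the 11 libraries. That set includes genes below the lowest mean of the 34, so the sets were not matched for level. The widest span was that of asb-1 (118-fold) and the narrowest was 1.60-fold. No test was made of this difference in spread.

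Further accessory and core subunits spanned the following ranges in the 11 deep libraries. Levels differed within a complex: means over the 12 libraries ran from 44.5 CPM for asb-1 to 950 CPM for hpo-18 in ATP synthase. In complex IV, cox-5A was at 492 to 963 CPM, cox-6A at 287 to 681 and cox-6B at 682 to 1409. In ATP synthase, atp-3, which links the head to the stalk, was at 590 to 945 CPM, atp-4 at 385 to 1155 and atp-5 at 318 to 634. In complex III, cyc-1, cytochrome c1, was at 130 to 309 CPM and the core protein ucr-1 at 78.6 to 264. In complex II, sdhb-1, the iron-sulfur subunit, was at 38.2 to 114 CPM and mev-1, the cytochrome b560 anchor, was at 72.2 to 198. In complex I, nuo-1 was at 83.1 to 238 CPM, nuo-5, the largest iron-sulfur subunit, at 29.2 to 125 and nuo-6 at 39.3 to 227.

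**Figure D2:**
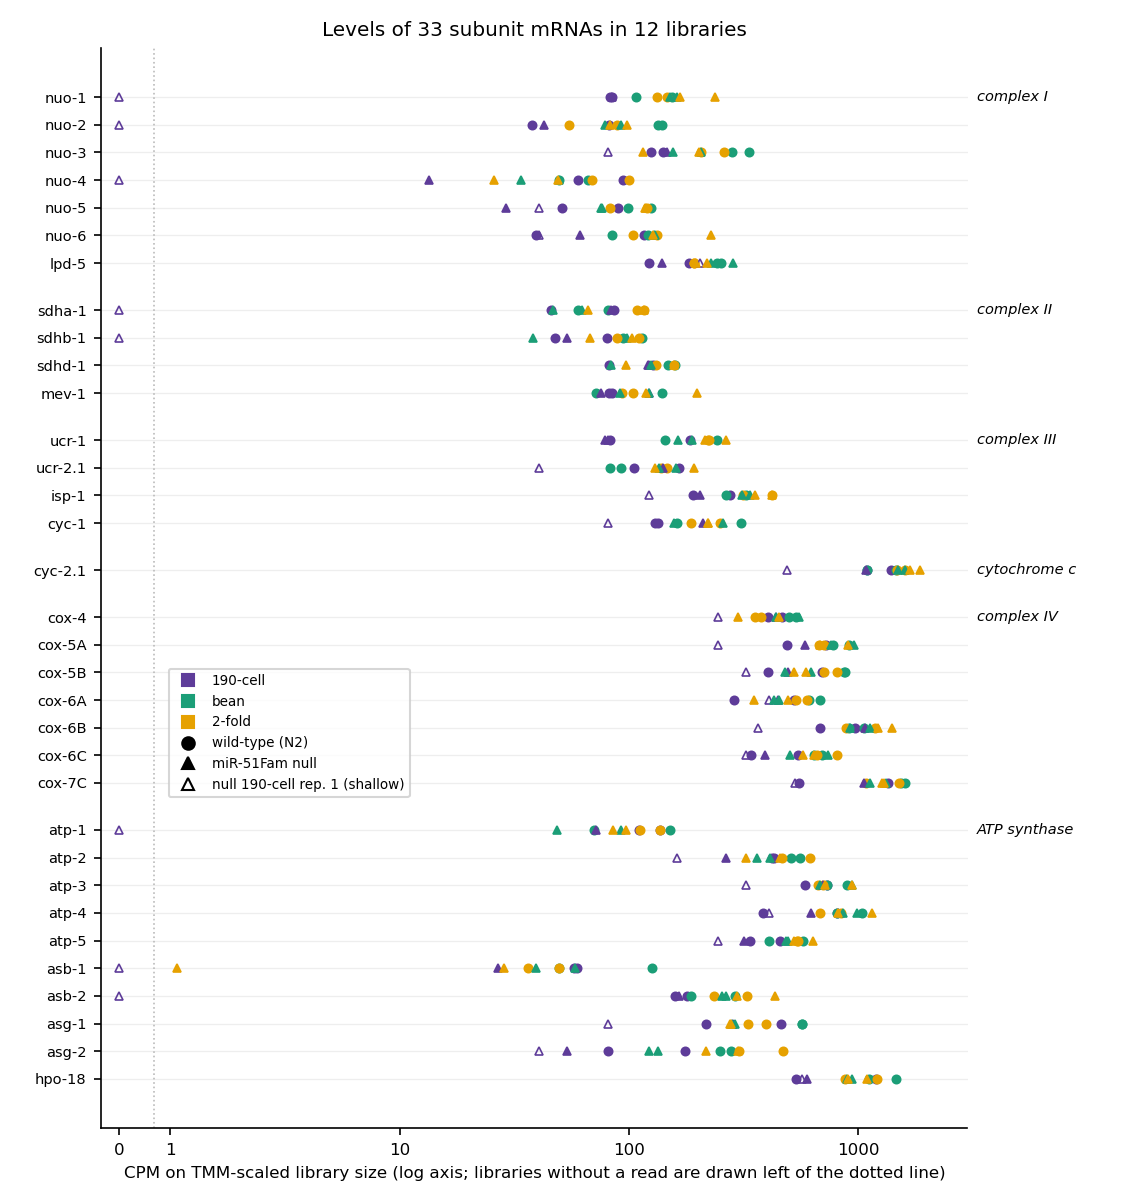
CPM (log axis) of 33 of the 34 subunit mRNAs, grouped by complex, in the 12 libraries, with colour for stage, shape for genotype and open triangles for the shallow library. Levels of a gene lie close together in most rows; asb-1 spreads furthest, down to 1.1 CPM in 1 null 2-fold library, and 8 genes have no read in the shallow library.

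The most abundant mRNA of each complex among the 34 genes is described next. Nuclear subunits outside the 34 could stand higher. Means over the 12 libraries were 831 CPM for ucr-11 of complex III and 225 CPM for nduf-6 of complex I. cyc-2.1, the soluble cytochrome c that carries electrons from complex III to complex IV, was at 1099 and 1389 CPM in wild-type 190-cell, 1095 and 1462 in bean and 1598 and 1471 in 2-fold libraries, and at 489 and 1078, 1603 and 1494, and 1677 and 1869 CPM in the null libraries of the same stages. Its wild-type levels overlapped between the 190-cell and bean stages, and its null libraries lay above the wild-type ones at the bean and 2-fold stages and below them at the 190-cell stage.

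For complex IV the leading mRNA was cox-7C, a small accessory subunit, at 553 and 1347, 1539 and 1595, and 1510 and 1082 CPM in wild-type and 529 and 1063, 1129 and 1328, and 1303 and 1277 CPM in null embryos. For ATP synthase it was hpo-18, the epsilon subunit of the central stalk, at 535 and 1197, 1113 and 1468, and 1210 and 876 CPM in wild-type and 570 and 598, 894 and 944, and 902 and 1097 CPM in null embryos. In both, the first wild-type 190-cell library stood well below the second. That library held the lowest wild-type level for 24 of the 34 genes and was also the one with most yolk gene reads.

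isp-1, the Rieske iron-sulfur protein, led the 4 listed complex III genes at 190 and 277, 266 and 325, and 421 and 314 CPM in wild-type and 122 and 204, 339 and 311, and 357 and 419 CPM in null embryos. lpd-5, the NDUFS4 subunit of complex I, was at 123 and 183, 253 and 243, and 191 and 193 CPM in wild-type and 204 and 140, 229 and 284, and 196 and 218 CPM in null embryos. The genotypes overlapped for lpd-5 at the 190-cell and bean stages. In complex II, sdhd-1, a membrane anchor of succinate dehydrogenase, was at 82.1 and 128, 159 and 149, and 131 and 158 CPM in wild-type and 122 and 121, 125 and 83.3, and 158 and 97.3 CPM in null embryos. The most abundant of the listed complex II mRNAs thus stood at about the level of a middling one of the listed complex I mRNAs.

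To ask how these mRNAs changed as the embryo developed, the stages were compared within each genotype. A single subunit, asg-2, rose between the 190-cell and 2-fold stages in wild-type embryos, and asg-2 and cyc-2.1 rose in null embryos. No other of the 34 genes passed an adjusted p of 0.05 in any stage comparison (edgeR quasi-likelihood test, Benjamini-Hochberg over 12062 genes). The tests used all 12 libraries, so the 6 groups shared 1 estimate of the spread.

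In wild-type embryos 0 of 34 genes were called between the 190-cell and bean stages, where 5.02% of all genes tested were. At an unadjusted p under 0.05 there were 2 of 34, against 13.1% of all genes, and DESeq2 called 0. The median log2 change was nevertheless 0.57 for the 34 genes and 0.00 for all genes. Both bean libraries lay above both 190-cell libraries for 21 of 34 genes and below for 1, against 17.6% and 18.5% of all genes, and the low 190-cell replicate 1 takes part in each of these.

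Between the bean and 2-fold stages of the wild type 0 of 34 were called against 4.35% of all genes, with 0 of 34 at an unadjusted p under 0.05 against 15.2%, and 0 by DESeq2. The median log2 change was -0.08 for the 34 genes and 0.19 for all genes, and the later libraries lay above for 6 genes and below for 10, against 31.5% and 19.3% of all genes. From 190-cell to 2-fold 1 of 34 rose and 0 fell, where 14.3% of all genes were called, 10.2% higher and 4.16% lower. The later libraries lay above for 19 genes and below for 2, against 34.2% and 22.5%. DESeq2 called 6 of 34 in that comparison and 16.8% of all genes.

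In the null 0 of 34 were called from 190-cell to bean (5.31% of all genes), with 3 of 34 at an unadjusted p under 0.05 (15% of all genes) and 0 by DESeq2. From bean to 2-fold 0 of 34 were called (8.91% of all genes), with 1 of 34 at an unadjusted p under 0.05 (22.5%) and 1 by DESeq2 (12.7%). From 190-cell to 2-fold 2 of 34 rose and 0 fell, where 16.2% of all genes were called, 9.94% higher and 6.29% lower, and DESeq2 called 12 of 34 and 18.1% of all genes. Libraries of the later stage lay above for 22 genes and below for 0 from 190-cell to bean (28.4% and 5.34% of all genes), above for 10 and below for 4 from bean to 2-fold (24.2% and 23.4%), and above for 23 and below for 0 from 190-cell to 2-fold (35.0% and 9.9%). On this scaling the mean of the null 190-cell group was the lowest of the 6 for 27 of 34 genes. For the null this depended on the scaling: the median log2 change of the 34 genes was 0.71 from 190-cell to bean and 0.74 from 190-cell to 2-fold with TMM, and 0.12 and 0.025 on library totals only.

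A missed threshold does not show that a level stayed the same. The 95% interval of the log2 change lay within -1 and 1, that is within a doubling or halving, for 1 of 34 genes from 190-cell to bean, 7 from bean to 2-fold and 2 from 190-cell to 2-fold in wild-type embryos.

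Among complex I genes, nuo-3, an accessory subunit (NDUFA6), had the smallest p of those higher at the bean stage, at 125 and 141 CPM in wild-type 190-cell, 335 and 283 in bean and 259 and 206 in 2-fold libraries (log2 change from 190-cell to bean 1.22, SE 0.47, adjusted p = 0.179). In the null, nuo-3 was at 81.4 and 147, 206 and 155, and 202 and 116 CPM. nuo-2, the NDUFS3 core subunit, was at 37.9 and 82.3, 135 and 139, and 88.6 and 54.6 CPM in wild-type and 0 and 42.7, 92.9 and 78.4, and 83.0 and 97.9 CPM in null embryos. Both complex I mRNAs had their highest wild-type levels at the bean stage, and neither passed the test.

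Of the 8 complex II and III mRNAs, 7 had both wild-type 2-fold libraries above both 190-cell libraries, against 34.2% of all genes, and ucr-2.1 was the exception. The low wild-type 190-cell replicate 1 takes part in each of these comparisons. ucr-2.1, a core protein of complex III, was at 165 and 105, 82.6 and 92.1, and 146 and 138 CPM in wild-type libraries and at 40.7 and 141, 136 and 161, and 192 and 130 CPM in null ones, and so was the single gene whose wild-type bean libraries lay below both 190-cell libraries. sdha-1, the flavoprotein of complex II, was at 45.7 and 85.8, 59.99 and 81.1, and 109 and 116 CPM in wild-type and 0 and 83.6, 62.3 and 46.7, and 66.5 and 116 CPM in null embryos. Its 2-fold libraries lay above its bean libraries in both genotypes. Neither gene passed the test in any stage comparison.

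In complex IV, cox-4 was at 404 and 466, 534 and 501, and 355 and 377 CPM in wild-type and 244 and 438, 555 and 440, and 299 and 450 CPM in null embryos. In wild-type embryos it was lower at 2-fold than at the bean stage without overlap (log2 change -0.50, SE 0.39, adjusted p = 0.568). cox-6C was at 342 and 548, 695 and 644, and 805 and 665 CPM in wild-type and 326 and 392, 507 and 738, and 573 and 642 CPM in null embryos, and its wild-type log2 change from 190-cell to 2-fold was 0.73 (SE 0.37, adjusted p = 0.229). atp-1, the alpha subunit of ATP synthase, was at 137 and 110, 70.4 and 152, and 137 and 112 CPM in wild-type libraries, with no order between stages, and at 0 and 71.9, 92.9 and 48.7, and 96.8 and 85.1 CPM in null ones.

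cyc-2.1, at the levels given above, rose from the 190-cell to the 2-fold stage in null embryos by a log2 change of 1.08 (SE 0.36, adjusted p = 0.0391), against 0.30 (SE 0.35, adjusted p = 0.645) in wild-type embryos. The difference between those changes was 0.78 (SE 0.50, 95% interval -0.24 to 1.80, adjusted p = 0.876). The null call was lost without the shallow library (0.76, adjusted p = 0.128), without null 2-fold replicate 2 (1.004, adjusted p = 0.166) and with DESeq2 size factors (0.78), TMMwsp scaling (0.93) or unscaled library totals (0.32, adjusted p = 0.394).

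The other called subunit belongs to the membrane part of ATP synthase. Subunit g, which in yeast and mammals sits in the membrane part of the enzyme where 2 copies pair into a dimer, is encoded by a pair of paralogs, asg-2 on the X chromosome (WBGene00000210, WBcel235 X:6841258-6842121, plus strand) and asg-1 on chromosome I (WBGene00000209, I:8692946-8693468, plus strand). asg-2 stood at 81.1 and 176 CPM in wild-type 190-cell, 250 and 279 in bean and 469 and 302 in 2-fold libraries. In the null it was at 40.7 and 53.9, 122 and 133, and 217 and 299 CPM. The 3 stages did not overlap in either genotype, and the value of 40.7 is a single read in the shallow library.

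From the 190-cell to the 2-fold stage asg-2 rose by a log2 change of 1.59 (SE 0.48, adjusted p = 0.0225) in wild-type and 2.31 (SE 0.58, adjusted p = 0.00525) in null embryos (edgeR). The difference between those rises was 0.72 (SE 0.72, 95% interval -0.76 to 2.205) and was not called. The wild-type call was lost when wild-type 190-cell replicate 1 (log2 change 1.303, adjusted p = 0.147) or 2-fold replicate 1 (1.24, adjusted p = 0.276) was left out, and the null call when 190-cell replicate 2 was left out, which leaves the shallow library alone at that stage (2.39, adjusted p = 0.365). That replicate had 96 asg-2 reads, about 6.34 molecules if repeated reads of a molecule were kept in the counts.

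asg-1 did not follow the same course. It was at 217 and 461, 567 and 568, and 396 and 332 CPM in wild-type embryos and at 81.4 and 285, 290 and 283, and 279 and 275 CPM in null embryos. From the bean to the 2-fold stage its mean fell from 568 to 364 CPM in wild-type and changed little in the null, from 286 to 277 CPM. The share of asg-2 among the reads of both paralogs is a ratio within a library and so does not depend on scaling. It was 27.2% and 27.7% in wild-type and 33.3% (1 of 3 reads) and 15.9% in null 190-cell libraries, 30.6%, 32.9%, 29.6% and 32.1% in the bean libraries, and 54.2%, 47.6%, 43.7% and 52.1% in the 2-fold libraries. The 4 libraries of the 2-fold stage thus all lay above the 4 of the bean stage, by a mean of 18.1 percentage points, with libraries of the genotypes overlapping within each stage (exact two-sided permutation test over libraries, p = 0.0286, the smallest that 4 against 4 can give, and 0.0857 after adjustment over the 6 paralog tests made). This comparison was chosen after the values were seen, and it does not pass 0.05 once adjusted. asg-1 overlaps K07A12.5 on the other strand.

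**Figure D3:**
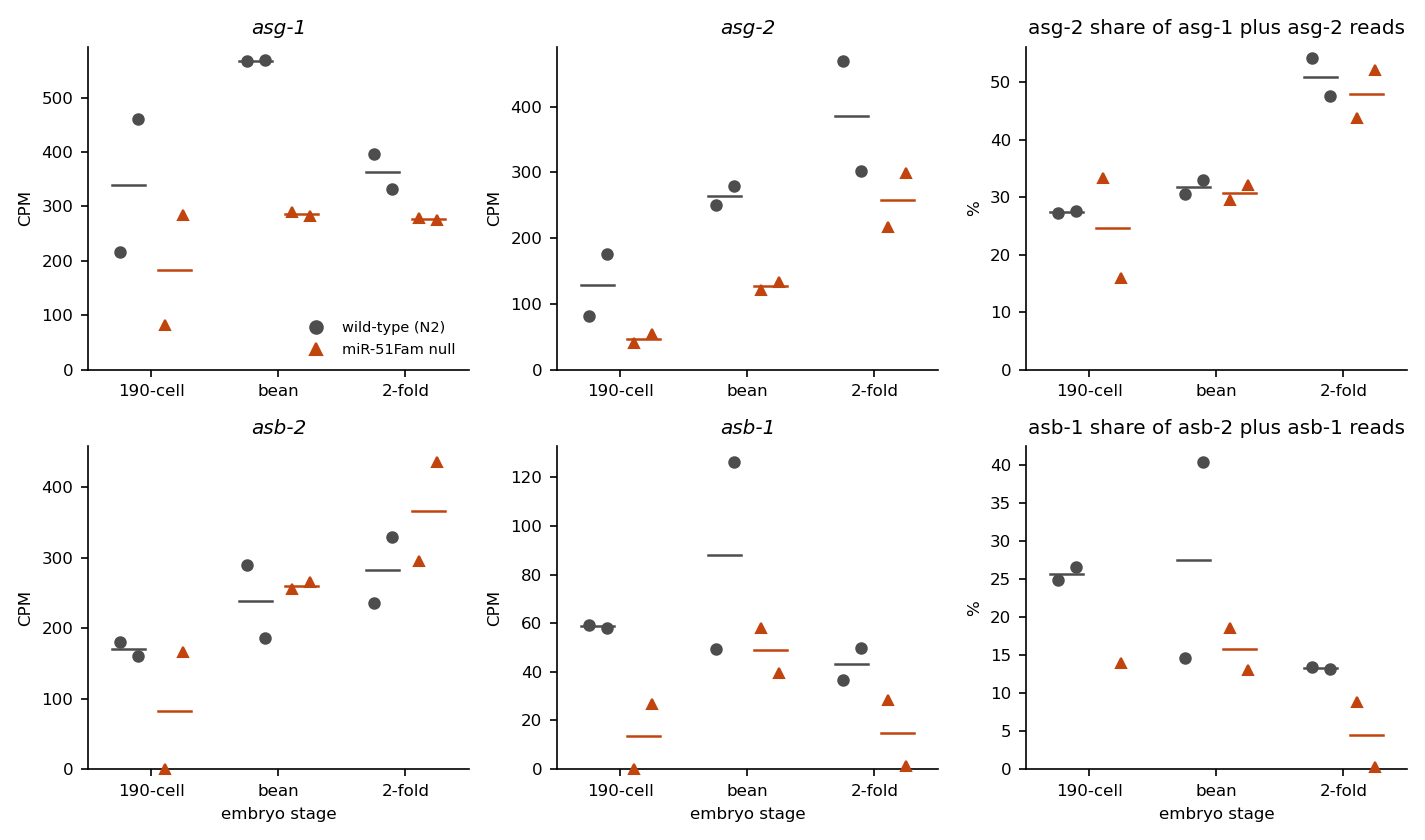
CPM of the ATP synthase subunit g paralogs asg-1 and asg-2 and the subunit b paralogs asb-2 and asb-1 by stage, and the share of asg-2 or asb-1 among the reads of its pair (right), with 1 point per library and lines for means. The asg-2 share lies between 29.6% and 32.9% in the 4 bean libraries and between 43.7% and 54.2% in the 4 libraries of the 2-fold stage in both genotypes; the null 190-cell share of 33.3% is 1 of 3 reads, and the shallow library gives no asb-1 share.

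The other paralog pair encodes subunit b, part of the stalk that holds the catalytic head in place. asb-2 (WBGene00000207, X:4469766-4471476), the more general isoform, was at 180 and 160, 290 and 186, and 236 and 329 CPM in wild-type and 0 and 166, 255 and 265, and 295 and 436 CPM in null embryos. asb-1 (WBGene00000206, III:4594543-4595821), known as the germline isoform, was at 59.5 and 57.8, 49.6 and 126, and 36.5 and 49.7 CPM in wild-type and 0 and 26.9, 58.0 and 39.5, and 28.6 and 1.07 CPM in null embryos. The value of 1.07 CPM rests on 8 reads in the deepest library, which is under 1 molecule if repeated reads of a molecule were kept in the counts (estimated 0.141 molecules). The share of asb-1 in the pair ran from 13.95% to 26.6% in the 3 libraries of the 190-cell stage that had reads, from 13.0% to 40.4% at the bean stage and from 0.245% to 13.4% at the 2-fold stage. The 2-fold and 190-cell libraries did not overlap, by a mean difference of -12.9 percentage points (exact permutation test of 3 against 4 libraries, two-sided, p = 0.0571, the smallest possible, adjusted over 6 tests 0.114). Germline markers were lower in the same null libraries: they held 0.00153% and 0.00662% of reads in null 2-fold libraries and 0.0141% and 0.0446% in wild-type ones. Their part in the asb-1 values was not tested.

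To ask whether loss of the miR-51 family moved the nuclear-encoded chain, null and wild-type libraries were compared at each stage and on average over the 3 stages. No subunit was called at any single stage, and on average asg-2 was lower in the null. At the 190-cell stage 0 of 34 genes were called (0.216% of all genes tested), at the bean stage 0 of 34 (0.0663%) and at the 2-fold stage 0 of 34 (2.16%). At an unadjusted p under 0.05 there were 2, 2 and 0 of 34, against 7.09%, 7.27% and 10.7% of all genes. By the DESeq2 Wald test the counts were also 0 at each stage. On average 1 of 34 was lower and 0 higher, where 4.52% of all genes were called, 3.59% lower and 0.929% higher, so the share of subunits called was close to that of all genes. The median log2 change on average was -0.18 for the 34 genes and -0.31 for all genes tested.

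The average over stages was the most precise comparison. The 95% interval lay within a log2 change of -1 to 1 for 23 of the 34 genes on average, against 4 at the 190-cell, 10 at the bean and 8 at the 2-fold stage. In that sense a change of more than 2-fold was outside the interval of 23 subunits, among them cyc-2.1 (log2 change -0.03, 95% interval -0.45 to 0.39), atp-3 (0.01, -0.44 to 0.46) and cox-5A (-0.06, -0.52 to 0.40).

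**Figure D4:**
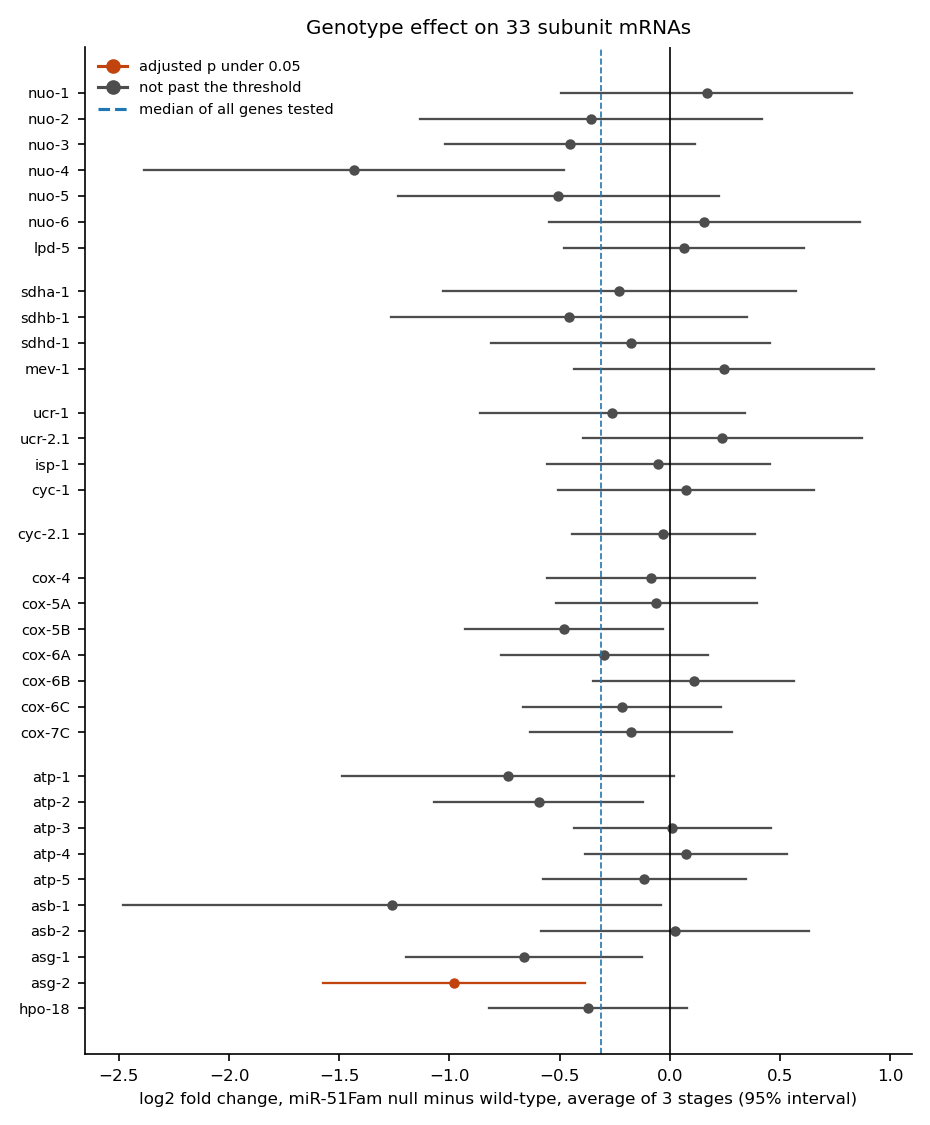
Log2 fold change of 33 of the 34 mRNAs between miR-51Fam null and wild-type embryos, averaged over the 3 stages, with 95% intervals from the edgeR fit and the median of all genes tested (-0.31) as a dashed line. Only asg-2 (red, -0.98) passed the adjusted threshold; nuo-4, asb-1, asg-1, atp-2 and cox-5B have intervals below 0 and did not pass it.

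For asg-2 the null libraries lay below the wild-type libraries at all 3 stages, at the levels given above. The log2 change was -1.304 (SE 0.56) at the 190-cell, -1.05 (SE 0.47) at the bean and -0.58 (SE 0.47) at the 2-fold stage, and -0.98 (SE 0.29, adjusted p = 0.0491) on average, where the median of all genes was -0.31. The difference between stages was not called (2-fold minus 190-cell 0.72, 95% interval -0.76 to 2.205). This call sits at the threshold. It was lost when any of 10 of the 12 libraries was left out, those other than wild-type 190-cell replicate 1 and 2-fold replicate 2, with a log2 change between -1.06 and -0.77 in those 10. Without the shallow library and both libraries richest in yolk gene reads, a choice made after seeing the data, the change was -1.18 (adjusted p = 0.00599).

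The subunits next in order of p were also lower in the null and did not pass. nuo-4, an accessory subunit of complex I (NDUFA10), was at 94.2 and 60.2, 49.6 and 66.2, and 99.9 and 69.1 CPM in wild-type and 0 and 13.5, 49.6 and 33.7, and 25.9 and 49.3 CPM in null embryos (average log2 change -1.43, SE 0.47, adjusted p = 0.0782). atp-2, the catalytic beta subunit of ATP synthase, was at 431 and 421, 556 and 509, and 464 and 616 CPM in wild-type and 163 and 267, 414 and 363, and 324 and 455 CPM in null embryos (-0.59, SE 0.23, adjusted p = 0.162). For atp-2, as for asg-2, both null libraries lay below both wild-type libraries at each stage.

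asg-1 had an average log2 change of -0.66 (SE 0.26, adjusted p = 0.172). Summed over asg-1 and asg-2, subunit g stood at 817 and 848 CPM in wild-type bean and 865 and 634 in 2-fold libraries, against 412 and 416 and 496 and 574 CPM in the null. The asg-2 share of the pair overlapped between the genotypes at both stages, so the division between the paralogs did not separate the genotypes. cox-5B, an accessory subunit of complex IV, was at 405 and 695, 872 and 872, and 811 and 708 CPM in wild-type and 326 and 496, 482 and 622, and 524 and 592 CPM in null embryos (-0.48, SE 0.22, adjusted p = 0.259). cox-6A, another accessory subunit, was at 287 and 528, 681 and 613, and 599 and 536 CPM in wild-type and 407 and 447, 451 and 431, and 497 and 350 CPM in null embryos (-0.296, SE 0.23, adjusted p = 0.660). Both complex IV mRNAs were lower in the null libraries of the bean and 2-fold stages without overlap. asb-1 had an average log2 change of -1.26 (SE 0.59, adjusted p = 0.285).

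The libraries were also compared by whether they overlapped. At the 190-cell stage both null libraries lay below both wild-type libraries for 9 of 34 genes and above for 0 (25.0% and 2.68% of all genes). The shallow library takes part in each of these, where a single read was worth 40.7 CPM after a TMM factor of 2.22. It had 0 reads of asb-1, atp-1 and nuo-4, 1 each of asg-2 and nuo-5, 2 of ucr-1 and 4 of atp-2. At the bean stage the counts were 11 below and 4 above (16.7% and 17.1%), and at the 2-fold stage 10 below and 6 above (25.9% and 16.1%). Those below at both later stages were asg-1, asg-2, atp-2, cox-5B, cox-6A and nuo-3, 6 of 34 against 7.82% of all genes, and cyc-2.1 was above at both, 1 of 34 against 6.38%. At all 3 stages 2 were below, asg-2 and atp-2, against 4.56% of all genes, and 0 above (0.464%). Complex I mRNAs stood on both sides. At the bean stage nuo-6, an NDUFB4 subunit, was among those above, while nuo-2, nuo-3 and nuo-5 were below. At the 2-fold stage nuo-1, the NADH-binding flavoprotein, was above (167 and 238 CPM against 146 and 132), as was lpd-5. At that stage nuo-3 and nuo-4 were below.

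By the interaction tests no subunit was called for a genotype effect that differed between stages: 0 of 34 were called for bean against 190-cell (0.0912% of all genes), 2-fold against bean (0.315%) and 2-fold against 190-cell (0.605%). At an unadjusted p under 0.05 each count was 0 of 34 (5.86%, 6.42% and 7.33% of all genes), by the DESeq2 Wald test each was also 0, and for 0 of the 34 did the 95% interval of the difference lie within -1 and 1.

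The subunits encoded by mtDNA gave a different picture from the nuclear-encoded ones. Reads of the 12 mtDNA protein genes made up 12.3% and 7.66% of assigned reads in wild-type 190-cell libraries, 10.4% and 8.22% in bean and 8.30% and 9.08% in 2-fold libraries. In the null they made up 10.7% and 9.20%, 13.5% and 16.8%, and 10.1% and 13.4%. The null libraries of the bean and 2-fold stages thus lay above the wild-type ones. The nuclear-encoded share of these libraries lay below, but both are shares of one total, so the shares are not independent of each other. With mtDNA and yolk reads left out of the total the 34 genes held 1.57% and 1.67% in wild-type and 1.42% and 1.38% in null bean libraries, and 1.404% and 1.3655% against 1.28% and 1.36639% in 2-fold libraries, where the genotypes overlapped.

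The ratio of mtDNA-encoded to nuclear-encoded subunit reads, which is also free of scaling between libraries, was 12.3 and 5.93 in wild-type 190-cell, 7.36 and 5.35 in bean and 6.46 and 7.34 in 2-fold libraries. In the null it was 8.21 and 8.29, 10.99 and 14.6, and 8.77 and 11.3. The genotypes overlapped at the 190-cell stage and not at the later 2 stages. The highest wild-type ratio belonged to the yolk-rich 190-cell library.

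Among single mtDNA genes, COX3, a core subunit of complex IV, and ND3, a core subunit of complex I, were higher in the null on average, by log2 changes of 0.65 (SE 0.18, adjusted p = 0.0367) and 0.60 (SE 0.16, adjusted p = 0.0263). COX3 stood at 18704 and 12044, 14329 and 12741, and 14774 and 13128 CPM in wild-type and at 7044 and 16060, 29919 and 33215, and 25137 and 35313 CPM in null embryos. ND3 stood at 12956 and 10681, 16252 and 13462, and 14562 and 16621 CPM in wild-type and at 9080 and 13223, 26269 and 40850, and 22406 and 28532 CPM in null embryos. For both, the null lay well above the wild-type at the bean and 2-fold stages. At the 190-cell stage the genotypes overlapped, with the shallow library as 1 of the 2 null libraries. These values alone do not show that the genotype effect differed between stages. The COX3 call was lost without wild-type bean replicate 2, null 190-cell replicate 2 or null 2-fold replicate 2 and with TMMwsp scaling (0.63, adjusted p = 0.0689), and the ND3 call without wild-type 2-fold replicate 1 or the same null libraries. The ND3 call was also lost without the shallow and both yolk-rich libraries (0.79, adjusted p = 0.223).

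Not all mtDNA genes stood higher. Both null libraries lay above both wild-type libraries for 7 of 12 at the bean stage (ND4L, ND1, COX3, ND4, COX1, COX2 and ND3), against 17.1% of all genes, and for 5 of 12 at the 2-fold stage (ND1, COX3, COX1, COX2 and ND3), against 16.1%, and below for 0 at both. ATP6, CYTB, ND2, ND5 and ND6 overlapped between genotypes at both. The average log2 change of the 12 ranged from -0.52 for ND2 to 0.65 for COX3, with a median of -0.03. From the 190-cell to the bean stage 5 of the 12 rose in the null (ND4L, ND1, COX3, COX2 and ND3), where 5.31% of all genes were called, with the shallow library as 1 of the 2 at the start.

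**Figure D5:**
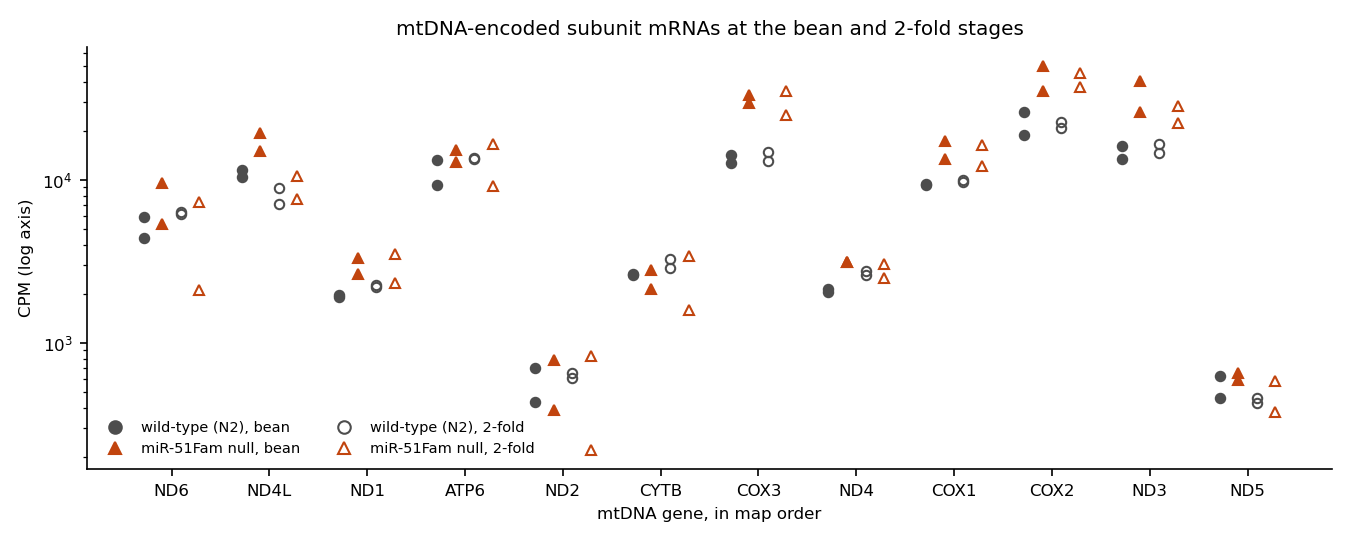
CPM (log axis) of the 12 mtDNA-encoded subunit mRNAs in map order at the bean (filled) and 2-fold (open) stages, with 1 point per library. COX3, COX2 and ND3 in null libraries (triangles) lie above wild-type libraries (circles) at both stages, while ATP6, CYTB and ND2 overlap.

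Some subunits have further paralogs that are not among the 34 genes, and the shares of these varied widely between libraries. cyc-2.2, the second cytochrome c gene, had no read in any library, while cyc-2.1 was the most abundant of the 34. sdha-2, a copy of the complex II flavoprotein, made up 39.8% and 12.2%, 36.4% and 27.6%, and 2.93% and 11.1% of sdha-1 plus sdha-2 reads in wild-type and 46.0%, 13.2% and 25.9%, and 0.667% and 5.95% in null libraries with reads. ucr-2.3, a copy of the complex III core protein, made up 31.6% and 28.4%, 24.0% and 34.4%, and 1.25% and 11.4% of ucr-2.1, ucr-2.2 and ucr-2.3 reads in wild-type and 0% and 54.3%, 4.42% and 3.30%, and 0% and 0.0665% in null libraries. ucr-2.3 was lower in the null on average (adjusted p = 0.00831, edgeR). The null libraries in which it was at 0 leave the size of the change undefined.

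Other mitochondrial genes around the chain were counted by list in the average over stages, in which 4.52% of all genes were called. On average, 2 of 13 other nuclear subunits and paralogs were lower, among them ucr-2.3, and 0 higher. None of 13 assembly factors, 8 ubiquinone synthesis genes or 9 mitochondrial chaperone and stress genes was called, with 2, 0 and 3 genes at an unadjusted p under 0.05 and median log2 changes of -0.38, -0.07 and 0.31. In the last list hsp-6, atfs-1 and lonp-1 lay above in the null at bean and 2-fold without overlap, as 6.38% of all genes did. At the bean stage hsp-60 and clpp-1 lay above and ubl-5, sod-2 and prdx-3 below, and these overlapped at 2-fold. dve-1 overlapped at both stages. Of 19 TCA cycle and pyruvate dehydrogenase genes 2 were higher and 1 lower. aco-2, mitochondrial aconitase, was higher (log2 change 1.11, SE 0.27, adjusted p = 0.0133), at 63.0 and 75.7, 69.2 and 189, and 679 and 401 CPM in wild-type and 40.7 and 85.9, 497 and 316, and 1795 and 1296 CPM in null embryos. idhb-1, a subunit of NAD-dependent isocitrate dehydrogenase, was higher (1.29, SE 0.38, adjusted p = 0.0470), at 29.4 and 61.4, 96.7 and 40.3, and 26.0 and 54.6 CPM in wild-type and 40.7 and 113, 180.5 and 110, and 129 and 132 CPM in null embryos.

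pdhb-1, the E1 beta subunit of pyruvate dehydrogenase, was lower (adjusted p = 0.0380), at 15.9 to 47.9 CPM in wild-type and 0 to 21.9 CPM in null libraries, with 0 reads in both null 190-cell libraries. vdac-1, the porin of the outer membrane, was the 1 of 2 carrier and porin genes tested that was lower (-0.93, SE 0.24, adjusted p = 0.0225), at 228 and 229, 632 and 889, and 615 and 879 CPM in wild-type and 40.7 and 124, 303 and 197, and 718 and 682 CPM in null embryos. The idhb-1 call was lost when any of 5 libraries was left out (wild-type 190-cell replicate 1, bean replicate 2 and 2-fold replicate 1, and null 190-cell replicate 2 and 2-fold replicate 2, adjusted p up to 0.684). The pdhb-1 call was lost when any of 7 libraries was left out (wild-type 190-cell replicate 1, bean replicate 2 and both of the 2-fold stage, and null 190-cell replicates 1 and 2 and 2-fold replicate 2, adjusted p up to 0.622) and without the shallow and both yolk-rich libraries (adjusted p = 0.215). The aco-2 call was lost without null 190-cell replicate 2 and without the shallow and both yolk-rich libraries (1.03, adjusted p = 0.349), and the vdac-1 call without wild-type bean replicate 2, null bean replicate 2 or null 2-fold replicate 2.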

How the data were processed

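Polyadenylated RNA of 12 whole-embryo libraries was sequenced by QuantSeq. As the study's methods describe, the authors extracted unique molecular identifiers (UMIs) with UMI-tools, trimmed reads, mapped them to WBcel235 with STAR, discarded UMI duplicates and counted genes with HTSeq. They deposited raw counts per gene. Versions, annotation release and strand setting are not given in the sources used here. Summary lines were kept out: 31.8% to 53.7% of reads were assigned, 39.3% to 63.5% mapped to several places and 0.0472% to 0.0882% were ambiguous, so levels of near-identical genes are uncertain. Of the 34 genes, 5 have exons that overlap those of a protein-coding gene on the other strand and 4 those of one on the same strand.

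Genes with 20 or more counts in total (12062) were fitted with edgeR 4.0.16 (R 4.3.3), with TMM scaling, a mean for each of 6 groups and robust quasi-likelihood F tests, two-sided, adjusted by Benjamini-Hochberg. CPM use TMM-scaled sizes. Intervals (95%) come from SE and the fit's degrees of freedom. The script was tested on simulated data. Alternatives were other scalings and filters, DESeq2 1.42.0, a replicate block, leaving out each library, and counts divided by estimated reads per molecule (3.68 to 56.8 in 11 libraries, estimated from genes without reads on the assumption that molecules were read repeatedly). The genes and lists were chosen with earlier results of these data known. Values are printed for genes called between genotypes, up to 3 genes in either direction by smallest p for each wild-type stage comparison, paralog sets and the most abundant of the 34 genes in each complex. Other genes named were chosen after their values were seen. Names came from the WBcel235 annotation, and those of mtDNA genes from RefSeq by position in the same assembly. No sequence is shown, since none was in the references used here. Of the lists, assembly factors matched 13 of 15 names. Body wall muscle, intestine, epidermis, neuron, germline, early embryo and yolk markers were summed; intestine markers held 0.0109% to 0.0632%, epidermis 0.0235% to 0.125% and neuron 0% to 0.0304% of reads in the 12 libraries. Of the 34 genes, 1 is counted in all totals and not reported singly here.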

Additional observations from a re-analysis of the deposited data

Results flagged for a closer look

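A single result, outside the 34 genes, stood apart by a test of the difference between stages. The genotype effect on ucr-2.3, a paralog of the complex III core protein ucr-2.1, differed between the 2-fold and the 190-cell stage by a log2 change of -7.49 (edgeR, adjusted p = 0.0325). ucr-2.3 stood at 95.1 and 57.8 CPM in wild-type and 0 and 207 CPM in null 190-cell libraries, at 53.3 and 63.7 against 10.6 and 6.93 CPM at the bean stage, and at 3.29 and 27.9 against 0 and 0.134 CPM at the 2-fold stage. The null 190-cell libraries lie far apart, and without null 190-cell replicate 2 the difference was 4.07, so the direction rests on that library and the size of the fitted change near 0 reads depends on the prior count.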

How the results depend on the processing

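The numbers of the replicates do not pair libraries by the labels, and the correlation of replicate differences between genotypes was 0.025, -0.030 and 0.016 at the 3 stages. With the replicate block 1 of 34 genes was called on average between genotypes and 4 (asb-2, asg-2, cyc-2.1, ucr-1) from 190-cell to 2-fold in the null, against 1 and 2 without it. The genotype average (1 gene) fell to 0 with DESeq2 size factors, TMMwsp scaling and filterByExpr, and rose to 5 with molecule-scaled counts (asb-1, asg-1, asg-2, atp-2, nuo-4) and to 3 (asg-1, asg-2, hpo-18) without the shallow and both yolk-rich libraries, an alternative chosen after seeing the data. Leaving out each library gave 0 to 1 there and 0 to 1 at the 2-fold stage. From 190-cell to bean in wild-type (0) molecule-scaled counts gave 1 and leaving out a library 0 to 1. From 190-cell to 2-fold in wild-type (1) TMMwsp and a fit of only the libraries compared gave 0, molecule-scaled counts 3, DESeq2 6 and leaving out a library 0 to 2. From bean to 2-fold in the null (0) DESeq2 and the set without shallow and yolk-rich libraries gave 1 and leaving out a library 0 to 1. From 190-cell to 2-fold in the null (2) DESeq2 size factors, TMMwsp and library totals gave 1, no low-count filter 10, filterByExpr 5, molecule-scaled counts 7, a fit of only the libraries compared 6, the set without shallow and yolk-rich libraries 5, DESeq2 12 and leaving out a library 1 to 6. Counts at the other comparisons were 0 under every alternative run. The cause of these shifts was not tested.

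Directions turned for 3 subunits, none of them called. From 190-cell to bean in wild-type nuo-4 became 0.037 and atp-1 0.10 without the shallow and yolk-rich libraries. Leaving out a library gave -0.72 to 0.013 for nuo-4, highest without wild-type 190-cell replicate 1, and -0.82 to 0.25 for atp-1, above 0 without wild-type 190-cell replicate 1 or bean replicate 1. From 190-cell to 2-fold cox-4 became 0.052 with no filter and 0.16 by DESeq2. For ucr-2.3 the difference of genotype effects ran from -9.01 to 4.07, highest without null 190-cell replicate 2. The summed share in wild-type bean, wild-type 2-fold, null bean and null 2-fold libraries became 1.35%, 1.13%, 1.05% and 1.02% without cyc-2.1, and 1.62%, 1.38%, 1.403% and 1.32% with mtDNA and yolk reads left out of the total, where the genotypes overlapped at 2-fold. Scaled by TMM it became 1.43%, 1.34% and 1.46% in wild-type 2-fold, null bean and null 2-fold and 0.808% in null 190-cell libraries. Counts over all genes moved more: 545 on average between genotypes ranged from 125 to 956, 26 at 190-cell from 0 to 218, 8 at bean from 1 to 173, 260 at 2-fold from 128 to 522, and the 3 interactions (11, 38 and 73) from 0 to 97, 5 to 184 and 3 to 204. Stage counts of 525 and 1730 in wild-type ranged from 233 to 1320 and 956 to 2552, and those of 641, 1075 and 1958 in the null from 91 to 1041, 708 to 1578 and 307 to 2898. Depth limits the null 190-cell stage most, where the shallow library gave 145 reads on the 34 genes.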
